A study of Bos taurus with 6 samples.

Results

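The Polycomb repressive complexes were followed through 10 of their genes, chosen by name from the 20958 genes of a count table: SUZ12, EZH1, EZH2, EED, RBBP7, JARID2 and MTF2 of Polycomb repressive complex 2 (PRC2), and RNF2, RING1 and BMI1 of Polycomb repressive complex 1 (PRC1). RNA was sequenced from BEND cells, a cultured line from the epithelium of bovine endometrium, in 6 libraries. In 3 of them the cells had been transfected with a bta-miR-200b mimic, a synthetic duplex that supplies the mature microRNA, and the labels give their genotype as overexpression of that microRNA. The other 3 came from cells transfected with mimic NC, a negative-control mimic, labelled as control and called NC here. All 6 libraries carry the entry Cell apoptosis under treatment with no agent named, and the labels used here give neither a dose nor a time after transfection. Nothing in them says that replicates were grown separately, and the tests therefore compare groups against a spread between libraries that may be technical.

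Polycomb proteins keep developmental genes silent by modifying histones. In PRC2, EZH2 or its paralog EZH1 methylates a lysine of histone H3, and the enzyme works only together with SUZ12 and EED, with the histone-binding RBBP7 or RBBP4 attached. PRC1 is built on RNF2 (RING1B) or RING1 (RING1A), ubiquitin ligases that mark histone H2A, each paired with a PCGF protein such as BMI1. SUZ12 has been reported as a direct target of miR-200b in human breast cancer cells, and BMI1 as a target of miR-200c, a family member with the same seed. Members of this microRNA family are known for holding cells in an epithelial state by repressing ZEB1 and ZEB2.

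Library totals ranged from 19212694 to 21129547 counts, and 12217 genes passed a filter on low counts. All 10 Polycomb genes passed it, with 62 reads for JARID2 in its shallowest library and 6286 reads for RBBP7 in its deepest. Levels are given as CPM, read counts divided by library sizes that were scaled by the TMM method, without correction for transcript length, so they are compared between libraries and not between genes. Of 8 epithelial markers, KRT8, KRT18 and KRT19 were plentiful in both groups. CLDN4 was at 0 in every library, and ESRP1 had 12 reads in the mimic libraries and 0 in the NC libraries. The mean in NC libraries was 11.3 CPM for CDH1, 0.215 CPM for KRT7 and 0.0502 CPM for EPCAM. In mimic libraries these means were 36.5, 2.19 and 2.51 CPM. The 8 epithelial markers summed to 10430 to 11850 CPM in mimic libraries and 8587 to 9303 CPM in NC libraries, and 5 of 6 tested rose (KRT8, KRT18, KRT7, CDH1 and EPCAM). Over all tested genes 4.3% rose and 2.15% fell at an edgeR adjusted p under 0.05. All 9 markers of fibroblasts or stroma had reads. COL1A2 and COL1A1 were plentiful in both groups, at means of 11600 and 6620 CPM in NC libraries. The 9 markers summed to 23630 to 26340 CPM in mimic libraries and 25300 to 26680 CPM in NC libraries, and 3 of them fell (DCN, PDGFRB and PDGFRA). Among 6 leukocyte markers PTPRC, CD3E and LYZ were at 0 throughout, and of the 2 tested CD14 fell (edgeR adjusted p of 0.0409), a call that DESeq2 and limma-voom did not make. The leukocyte list summed to 2.93 to 3.42 CPM in mimic libraries and 4.16 to 4.68 CPM in NC libraries. Among 6 endothelial markers CLDN5 was at 0, and of the 2 tested PECAM1, which overlaps MILR1, fell by edgeR (adjusted p of 0.0146), DESeq2 and limma-voom. The endothelial list summed to 3.03 to 3.52 CPM in mimic libraries and 5.05 to 6.3 CPM in NC libraries. Of 4 smooth muscle markers 3 were tested, with 0 called by edgeR, DESeq2 or limma-voom and 0 at an unadjusted p under 0.05. The smooth muscle list summed to 910.9 to 1077 CPM in mimic libraries and 967.6 to 1127 CPM in NC libraries. The part of these shifts in the values of the Polycomb genes was not tested. In bulk RNA, fewer cells of a type and less RNA per cell cannot be told apart.

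None of the 10 Polycomb genes changed between mimic and NC libraries by edgeR's quasi-likelihood test, with p-values adjusted by the Benjamini-Hochberg method over the whole table and a threshold of 0.05, past which a gene is here said to be called. Over all 12217 tested genes 6.45% were called, 4.3% as higher and 2.15% as lower. At an unadjusted p under 0.05 the count was 1 of 10 members, EZH2, against 18.5% of all tested genes. DESeq2 called 1 member, again EZH2, and limma-voom 0. Log2 fold changes ran from −0.09 for RING1 to 0.23 for EZH2, with 7 above and 3 below 0. Their median was 0.05, against 0.001 over all tested genes. Every one of the 10 intervals of 95% lay within 0.5 on the log2 scale on either side of 0.

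**Figure D1:**
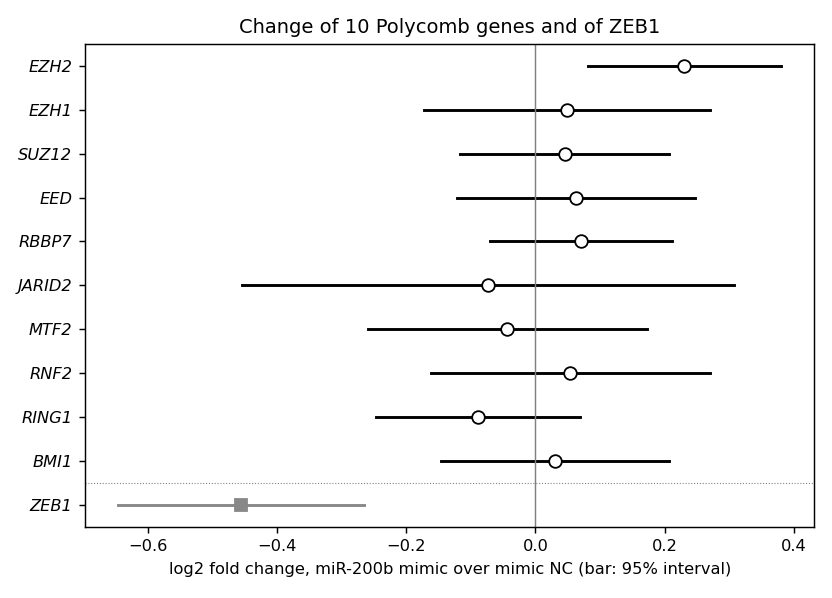
Log2 fold change of each Polycomb gene and of ZEB1 (x axis, miR-200b mimic over mimic NC), with bars for the 95% interval, open circles for genes that were not called and a filled square for a called gene. The 10 Polycomb genes lie between −0.09 and 0.23, and ZEB1 stands apart at −0.46.

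SUZ12, the scaffold of PRC2 (GeneID 538774), had 67.8, 80.4 and 76.4 CPM in mimic replicates 1 to 3, against 72.1, 70.2 and 75.3 CPM in NC replicates 1 to 3. The groups overlapped, with mimic replicate 1 below every NC library and mimic replicates 2 and 3 above them. Its log2 fold change was 0.05 ± 0.08 (SE), with an edgeR adjusted p of 0.834. In percent the interval ran from −7.8% to 15.4%, so a fall of SUZ12 mRNA by more than that lower bound lay outside it. SUZ12 was not called under any of 13 alternative settings.

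ZEB1, the best known target of this microRNA, gives the scale of a response in the same libraries. It had 25.8, 30.3 and 31.8 CPM in mimic replicates 1 to 3, against 40.5, 37.9 and 42.1 CPM in NC replicates 1 to 3, a log2 fold change of −0.46 ± 0.09 (SE) with an interval of −0.65 to −0.27. All 3 mimic libraries lay below all 3 NC libraries, and the interval did not meet that of SUZ12. The ratio of SUZ12 to ZEB1 CPM was 2.63, 2.65 and 2.41 in mimic replicates 1 to 3, against 1.78, 1.85 and 1.79 in NC replicates 1 to 3. The log2 ratio was higher by 0.50 in the mimic libraries (two-sided exact permutation test, p = 0.1), and 0.1 is the smallest p that 3 libraries against 3 can give. This ratio was added after the values had been seen, when ZEB1 was already known to separate the groups. Its p is therefore no separate evidence about SUZ12. An mRNA library does not show whether SUZ12 protein changed.

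**Figure D2:**
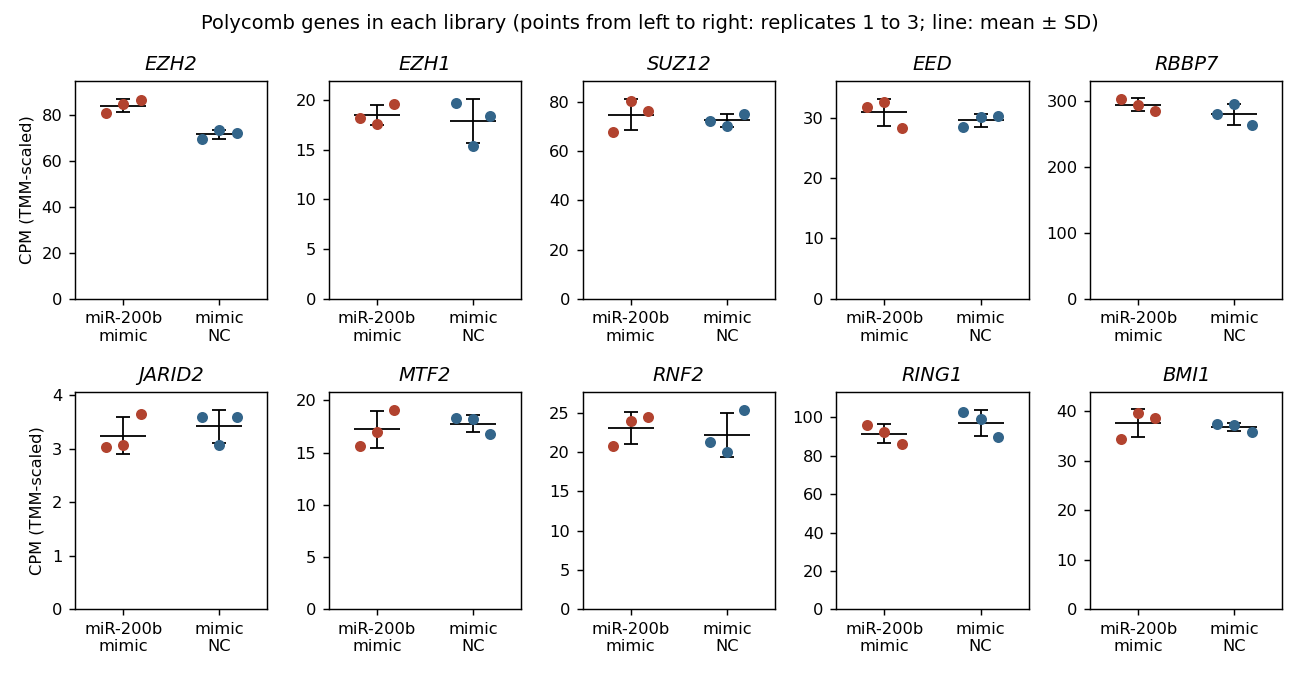
Level of each Polycomb gene in CPM (y axis, from 0) in the 3 miR-200b mimic libraries and the 3 mimic NC libraries (x axis). Points are libraries, with lines for the mean and bars for the SD. EZH2 is the one gene whose groups do not overlap, at 81 to 86.5 CPM with the mimic and 69.5 to 73.3 CPM with NC.

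EZH2, the main methyltransferase of PRC2 (GeneID 509106), had 81, 84.7 and 86.5 CPM in mimic replicates 1 to 3, against 69.5, 73.3 and 72.1 CPM in NC replicates 1 to 3. All 3 mimic libraries stood above all 3 NC libraries. This was the single member without overlap, while 21.8% of all tested genes had groups that did not overlap. The log2 fold change was 0.23 ± 0.07 (SE), a 1.17-fold difference with an interval of 0.08 to 0.38, and the edgeR adjusted p was 0.059. The difference therefore did not pass the threshold, by a narrow margin. DESeq2 gave an adjusted p of 0.0464, and without mimic replicate 1 edgeR gave 0.0392. Over all alternatives the adjusted p of EZH2 ranged from 0.0258 to 0.346, and its log2 fold change from 0.21 to 0.26.

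Genes of proliferation, with which EZH2 is known to rise and fall in many cell types, were measured beside it. Of 22 tested, 3 rose (MKI67, CENPF and TOP2A), none fell and 19 did not pass. Over all tested genes 4.3% were called as higher and 2.15% as lower. The list median was 0.16 on the log2 scale, with 21 of the 22 genes above 0 and 1 below. Their summed CPM was 2706, 2826 and 2363 in mimic replicates 1 to 3, against 2121, 2460 and 2186 in NC replicates 1 to 3. For this sum the groups overlapped, with mimic replicate 3 below NC replicate 2. Among the mimic libraries EZH2 was highest in replicate 3, where the sum was lowest. Among the NC libraries EZH2 and the sum were both highest in replicate 2 and lowest in replicate 1. The part of proliferation in the EZH2 values was not tested.

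**Figure D3:**
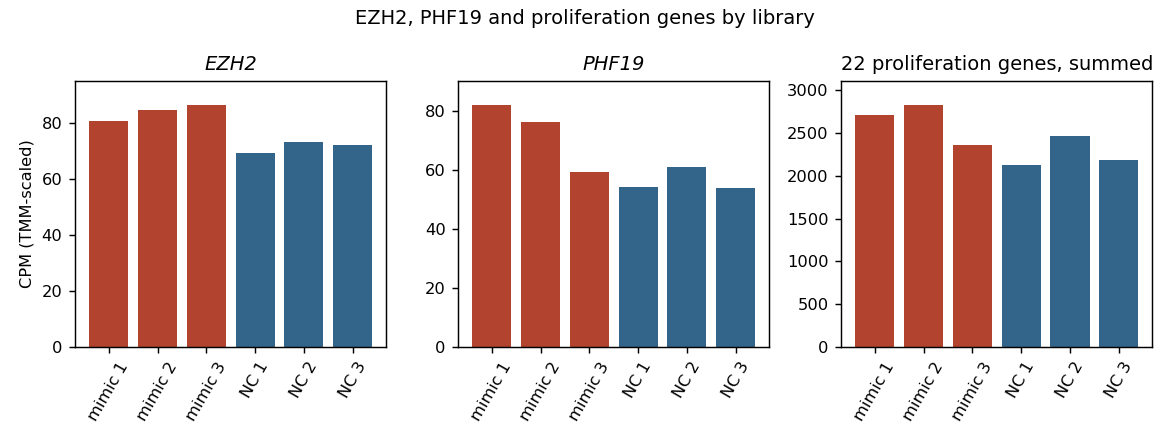
Bars give CPM (y axis, from 0) of EZH2, of the PRC2 accessory gene PHF19 and of 22 proliferation genes summed, in each mimic and NC library (x axis). EZH2 is above its NC values in all 3 mimic libraries, while PHF19 and the proliferation sum in mimic replicate 3 lie below NC replicate 2.

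EZH1 (GeneID 533087), the paralog that takes the catalytic place in many resting cells, had 18.2, 17.6 and 19.6 CPM in mimic replicates 1 to 3, against 19.7, 15.4 and 18.4 CPM in NC replicates 1 to 3. Its highest and its lowest value both belonged to NC libraries. The log2 fold change was 0.05 ± 0.11 (SE), with an edgeR adjusted p of 0.875. The balance of the catalytic subunits was followed as the ratio of EZH2 to EZH1 CPM. It was 4.46, 4.81 and 4.42 in mimic replicates 1 to 3, against 3.52, 4.77 and 3.92 in NC replicates 1 to 3. NC replicate 2, which had the least EZH1, reached the mimic range. The log2 ratio was higher by 0.18 in the mimic libraries (two-sided exact permutation test, p = 0.3, with 0.1 as the smallest possible). Without NC replicate 1 this difference was 0.08 and without NC replicate 2 it was 0.30, so single libraries moved it by more than 1.5 times.

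EED (GeneID 404183), the subunit that binds methylated histone H3 and stimulates the enzyme, had 31.8, 32.6 and 28.3 CPM in mimic replicates 1 to 3, against 28.4, 30.2 and 30.3 CPM in NC replicates 1 to 3. Mimic replicate 3 had the lowest value and mimic replicate 2 the highest, so the NC range lay inside the mimic range. Its log2 fold change was 0.06 ± 0.09 (SE), with an edgeR adjusted p of 0.787. RBBP7 (GeneID 537402), a WD-repeat protein that binds histones in PRC2 and in several deacetylase complexes, had 303, 294 and 284 CPM in mimic replicates 1 to 3, against 280, 295 and 263 CPM in NC replicates 1 to 3. The groups overlapped, since NC replicate 2 was above mimic replicates 2 and 3. The log2 fold change was 0.07 ± 0.07 (SE), with an edgeR adjusted p of 0.657, and this was the narrowest interval of the 10, at −0.07 to 0.21. Its close paralog RBBP4, named after its values were seen, stood at 245 ± 8.93 CPM in mimic libraries and 252 ± 7.32 CPM in NC libraries (SD, n = 3 each). The paralogs are similar enough that reads may have been assigned to the wrong one, and RBBP4 overlaps SYNC.

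JARID2 and MTF2 are accessory subunits that help bring PRC2 to its target sites. JARID2 (GeneID 528253) was the shallowest member, with 63, 63 and 74 reads in mimic replicates 1 to 3, against 73, 62 and 69 reads in NC replicates 1 to 3. These are 3.03, 3.07 and 3.64 CPM with the mimic, against 3.6, 3.07 and 3.59 CPM with NC, and the groups overlapped. Its log2 fold change was −0.07 ± 0.18 (SE), and the interval of −0.45 to 0.31 was the widest of the 10. In percent it ran from −27% to 23.7%, so smaller changes of JARID2 were not detectable at this depth. MTF2 (GeneID 615211) had 15.6, 17 and 19.1 CPM in mimic replicates 1 to 3, against 18.3, 18.2 and 16.8 CPM in NC replicates 1 to 3. Mimic replicate 1 was the lowest library and mimic replicate 3 the highest. The log2 fold change was −0.04 ± 0.10 (SE), with an edgeR adjusted p of 0.89.

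In PRC1 the ubiquitin ligase RNF2 (GeneID 540090) had 20.7, 23.9 and 24.4 CPM in mimic replicates 1 to 3, against 21.2, 20 and 25.3 CPM in NC replicates 1 to 3. Both the lowest and the highest library were NC, and the log2 fold change was 0.05 ± 0.10 (SE), with an edgeR adjusted p of 0.852. RING1 (GeneID 100125778), its paralog, had 96.2, 92.3 and 86.1 CPM in mimic replicates 1 to 3, against 103, 99 and 89.6 CPM in NC replicates 1 to 3. NC replicates 1 and 2 were the highest libraries and mimic replicate 3 the lowest, the groups overlapped, and the log2 fold change was −0.09 ± 0.08 (SE), with an edgeR adjusted p of 0.608. The ratio of RNF2 to RING1 CPM was 0.215, 0.259 and 0.284 in mimic replicates 1 to 3, against 0.205, 0.202 and 0.283 in NC replicates 1 to 3. Here replicate 3 had the highest ratio in each group. The log2 ratio differed by 0.14 (two-sided exact permutation test, p = 0.5, with 0.1 as the smallest possible), and by 0.06 to 0.30 when single libraries were left out.

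BMI1 (GeneID 510666), a PCGF partner of the ligases in canonical PRC1 and a repressor of the CDKN2A locus, had 34.4, 39.7 and 38.7 CPM in mimic replicates 1 to 3, against 37.4, 37.2 and 35.9 CPM in NC replicates 1 to 3. As for SUZ12, mimic replicate 1 was below every NC library and the other mimic libraries were above them. The log2 fold change was 0.03 ± 0.09 (SE), with an edgeR adjusted p of 0.907 and an interval of −9.6% to 15.4%.

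The members varied among replicates to different degrees. The coefficient of variation across the mimic libraries ran from 3.21% for RBBP7 to 10.4% for JARID2, and across the NC libraries from 2.23% for BMI1 to 12.7% for RNF2. Counting error alone would give JARID2 12.2% at its mean read number, so its spread was no larger than that of counting. For SUZ12 counting error would give 2.59%, against 8.61% in the mimic libraries and 3.57% in the NC libraries. EZH2 stayed nearer to its counting error of 2.52%, at 3.37% in mimic libraries and 2.72% in NC libraries.

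Further subunits of both complexes were read from lists, and 4 of 35 tested rose by edgeR while none fell. Over all tested genes 4.3% were called as higher and 2.15% as lower. Of the 35, DESeq2 called 3 and limma-voom 4. In the list of other PRC2 subunits 1 of 6 tested rose, and the list median was 0.05. It was PHF19, a Polycomb-like relative of MTF2 that binds methylated histone H3, with 81.9, 76.2 and 59.4 CPM in mimic replicates 1 to 3, against 54.3, 61.1 and 53.7 CPM in NC replicates 1 to 3. Mimic replicate 3 lay within the NC range, so the groups overlapped, and the log2 fold change was 0.36 ± 0.10 (SE), with an edgeR adjusted p of 0.0233. PHF19 lost its call in edgeR without mimic replicate 1 (adjusted p of 0.147), mimic replicate 2 (0.16), NC replicate 1 (0.126) or NC replicate 3 (0.109). Like the proliferation sum, PHF19 was lowest in replicate 3 among the mimic libraries and highest in replicate 2 among the NC libraries, and the part of proliferation in its difference was not tested.

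Of 11 other canonical PRC1 subunits 2 rose and the remaining 9 were not called, with a list median of 0.05. CBX6, a chromodomain subunit that reads methylated histone H3, had 98.7, 93.9 and 90.8 CPM in mimic replicates 1 to 3, against 79, 76.9 and 82.7 CPM in NC replicates 1 to 3. The groups did not overlap, and the log2 fold change was 0.25 ± 0.07 (SE), with an edgeR adjusted p of 0.0402. SCML2, a Scm-type subunit, had 2.84, 4.25 and 3.84 CPM in mimic replicates 1 to 3, against 2.07, 2.38 and 2.03 CPM in NC replicates 1 to 3, or 39 to 87 reads a library. Its groups did not overlap either, and the log2 fold change of 0.75 ± 0.21 (SE) had an edgeR adjusted p of 0.0306. Neither call held in every fit that left out 1 library, while the log2 fold changes kept their direction. They ranged from 0.22 to 0.28 for CBX6 and from 0.63 to 0.90 for SCML2. In edgeR CBX6 lost its call when any one library but mimic replicate 3 was left out, at an adjusted p of 0.061 (without NC replicate 3) to 0.214 (without NC replicate 1), and SCML2 without mimic replicate 2 (adjusted p of 0.201), NC replicate 1 (0.119) or NC replicate 3 (0.0973). DESeq2 gave SCML2 an adjusted p of 0.0537.

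Among 18 variant PRC1 subunits 1 rose and 17 were not called, with a list median of 0.01. BCORL1, a corepressor related to BCOR, had 10.8, 11.5 and 10.4 CPM in mimic replicates 1 to 3, against 7.89, 7.53 and 8.74 CPM in NC replicates 1 to 3. Its values did not overlap between the groups, and the log2 fold change was 0.44 ± 0.12 (SE), with an edgeR adjusted p of 0.0344. That call was lost in edgeR without mimic replicate 1 (adjusted p of 0.0658), mimic replicate 2 (0.166), NC replicate 1 (0.161) or NC replicate 2 (0.109). The deposited annotation gives its own lists, and 3 were read. All 8 genes annotated to the ESC/E(Z) complex, another name of PRC2, were tested, and none was called by edgeR, DESeq2 or limma-voom or had an unadjusted p under 0.05. That list held 5 of the members and lacked EZH2 and SUZ12. All 14 genes annotated to the PRC1 complex were tested, and none was called by any of the 3 tools. An unadjusted p under 0.05 was reached by 2 of them, against 18.5% of all tested genes. Of 20 genes annotated to the PcG protein complex, the 2 called among 19 tested were CBX6 and SCML2.

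**Figure D4:**
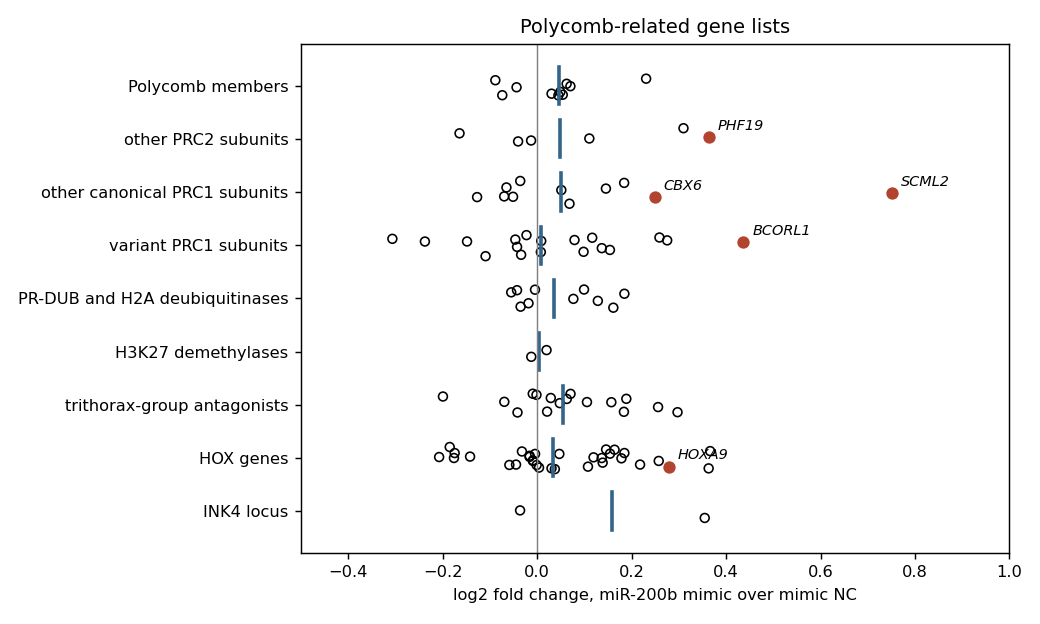
Log2 fold change (x axis, miR-200b mimic over mimic NC) of each tested gene in the Polycomb members and 8 related lists (y axis), with filled points for called genes, open points for the others and a bar at each list median. The 5 called genes are PHF19, CBX6, SCML2, BCORL1 and HOXA9, all above 0.

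Genes that act against Polycomb marks were not called by edgeR, DESeq2 or limma-voom. The H3K27 demethylases KDM6B and KDM6A, which remove the methyl groups that PRC2 adds, had log2 fold changes of 0.02 ± 0.09 and −0.01 ± 0.08 (SE). None of 10 tested genes of the PR-DUB and other H2A deubiquitinases, which remove the ubiquitin that PRC1 adds, was called, and the list median was 0.04. At an unadjusted p under 0.05, which 18.5% of all tested genes reached, there were 2. These were HCFC1, a scaffold of the complex, at 0.18 ± 0.07 (SE), and ASXL2, a cofactor of the deubiquitinase, at 0.16 ± 0.08 (SE). Of 16 trithorax-group antagonists none passed, with a list median of 0.06. At an unadjusted p under 0.05 there were 5 of them, against 18.5% of all tested genes. KMT2D, a methyltransferase of enhancers, stood at 0.30 ± 0.11 (SE) with an edgeR adjusted p of 0.14, and SMARCA2, an ATPase of chromatin remodelling, at −0.20 ± 0.08 (SE) with an edgeR adjusted p of 0.153. When single libraries were left out, edgeR called 0 to 3 trithorax genes as higher and 0 to 1 as lower, the 3 without NC replicate 3, and 1 lower without mimic replicate 3 or NC replicate 2.

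HOX genes, classical targets of Polycomb silencing, were read from all 4 clusters. Of 39, 32 passed the filter, 2 had no read in any library and 5 had too few to test. Among the 32 tested 1 rose, none fell and 31 did not pass, while 4.3% of all tested genes were called as higher and 2.15% as lower. An unadjusted p under 0.05 was reached by 5 of the 32, against 18.5% of all tested genes. The list median was 0.03, and 18 lay above 0 and 14 below. HOXA9 had 51.6, 56.1 and 57.2 CPM in mimic replicates 1 to 3, against 44, 46.1 and 45.9 CPM in NC replicates 1 to 3. Its groups did not overlap, and the log2 fold change was 0.28 ± 0.08 (SE), with an edgeR adjusted p of 0.0324. In edgeR the call was lost without mimic replicate 2 (adjusted p of 0.142), mimic replicate 3 (0.0743), NC replicate 1 (0.22) or NC replicate 3 (0.0776). The HOX genes with the most reads were HOXC6, HOXA6 and HOXA5. HOXC6 stood at 66.2 ± 2.55 CPM in mimic libraries and 66.4 ± 2.3 CPM in NC libraries (SD, n = 3 each). HOXA5 stood at 51.2 ± 3.21 CPM in mimic libraries and 51.3 ± 3.14 CPM in NC libraries (SD, n = 3 each). HOXA6 had 56.7 ± 1.67 CPM with the mimic and 48.8 ± 5.1 CPM with NC (SD, n = 3 each), at an edgeR adjusted p of 0.14. HOXA5 and HOXA6 overlap each other in the RefSeq annotation, so their reads may not be separable.

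**Figure D5:**
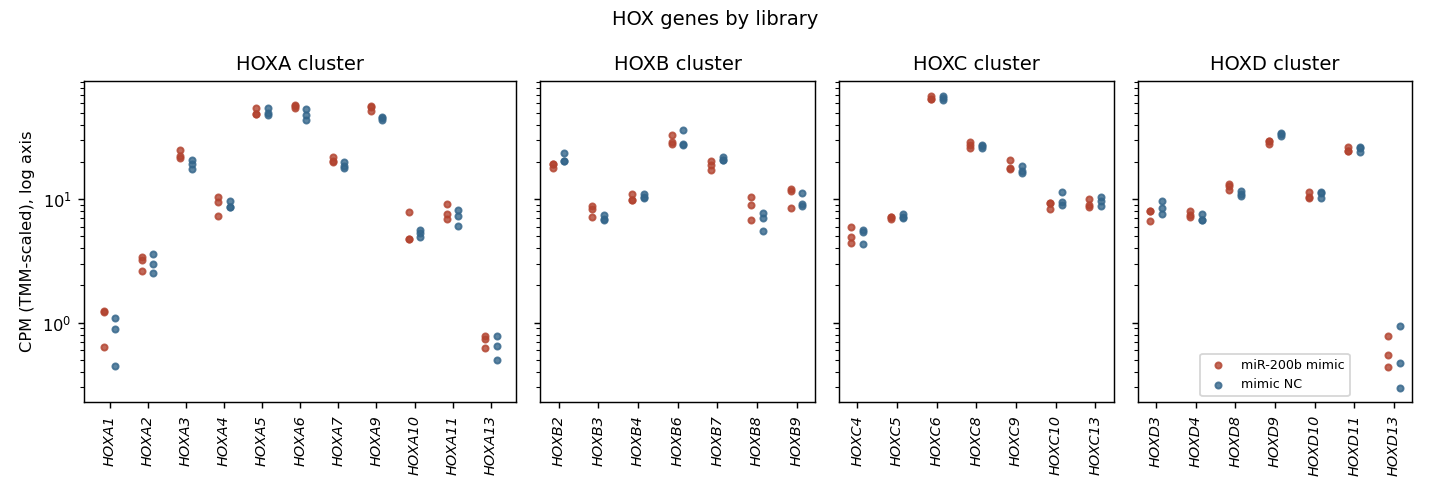
CPM (y axis, log scale) of the 32 tested HOX genes in each library, by cluster (x axis), with mimic libraries left of NC libraries for each gene. The groups lie at like levels for most genes, and HOXA9, at 51.6 to 57.2 CPM with the mimic and 44 to 46.1 CPM with NC, was the one called.

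The INK4 locus, whose silencing by Polycomb lets cells go on dividing, was read through CDKN2A and CDKN2B. CDKN2A had 14.4, 12.4 and 11.2 CPM in mimic replicates 1 to 3, against 11.5, 15.3 and 12.2 CPM in NC replicates 1 to 3. CDKN2B had 2.5, 1.9 and 3.44 CPM in mimic replicates 1 to 3, against 2.37, 1.73 and 2.03 CPM in NC replicates 1 to 3. Both genes overlapped between the groups and neither was called by edgeR, DESeq2 or limma-voom or had an unadjusted p under 0.05. The edgeR adjusted p was 0.927 for CDKN2A and 0.471 for CDKN2B. The log2 fold change was −0.04 ± 0.13 (SE) for CDKN2A, with a 95% interval of −0.30 to 0.23. For CDKN2B it was 0.35 ± 0.24 (SE), with an interval of −0.14 to 0.85. CDKN2B had 35 to 70 reads a library, so smaller changes of this gene were not detectable at this depth.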

How the data were processed

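The deposited file, made by the authors, is a table of unnormalised read counts per gene for 6 libraries of BEND cells, with symbols, GeneIDs and annotation terms per the file headers. TRIzol extraction and a stranded TruSeq mRNA kit are given per the labels' protocols, and Trimmomatic, HISAT2 and HTSeq are named, without versions, per the submitters' processing notes. The sources used here do not give the genome build, annotation or strand setting, so coordinates are left out, and neighbours that overlap a gene were taken from RefSeq (assembly ARS-UCD2.0). Of its symbols, 26 had been stored as dates and were restored through their GeneIDs, and all listed genes were found.

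Genes were kept by filterByExpr (minimum count 10, minimum total 15). The test was edgeR 4.0.16 (limma 3.58.1, R 4.3.3), quasi-likelihood, TMM scaling, robust dispersion, group as the single factor, two-sided, fitted on the whole table and tested on simulated data. Standard errors are the log2 fold change over the square root of F, and 95% intervals use them without adjustment for the number of genes. Depth was 19212694 to 21129547 counts a library. The alternatives were RLE and upper quartile scaling, other filters, limma-voom, DESeq2 1.42.0, a block for the replicate number and leaving out each library. The members, lists and tests were chosen with earlier results of these data known. Beyond the members, the rule named the called genes of each Polycomb-related list or, where none was called, the 2 with the smallest p, the 3 HOX genes with the most reads, and ZEB1. RBBP4, LCOR, MGA, the other PCGF genes and the marker genes were named outside that rule, after their values were seen.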

Additional observations from a re-analysis of the deposited data

How the results depend on the processing

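Over 13 alternatives for each of the 10 Polycomb genes, 122 of 130 values kept their direction and their side of the threshold, 5 changed sign and 3 passed the threshold. EZH2 made all 3 new calls, so that 1 member was higher with DESeq2 (adjusted p of 0.0464), 1 with the replicate block (0.0258) and 1 without mimic replicate 1 (0.0392). None was called as lower under any alternative. When single libraries were left out, the count of higher members was 0 to 1. The 5 sign changes were of values near 0, none of them called. SUZ12 ranged from −0.0088, without mimic replicate 2, to 0.11, and BMI1 from −0.0096, without mimic replicate 2, to 0.090. EZH1 ranged from −0.052, without NC replicate 2, to 0.13, RNF2 from −0.019, without NC replicate 2, to 0.16, and MTF2 from −0.12 to 0.024, without mimic replicate 1. Over all genes, 275 to 731 were higher and 82 to 414 lower when single libraries were left out, and the replicate block gave 816 higher and 496 lower genes, against 525 and 263 without it. The block also moved the higher calls to 2 of the other PRC2 subunits, 3 variant PRC1 subunits, 2 trithorax-group genes and 2 HOX genes, against 1, 1, 0 and 1 without it. Deviations of same-numbered libraries from their group means correlated at 0.128 and 0.189 for replicates 2 and 3 but at −0.051 for replicate 1, so not every pair was over 0.1 and the numbers were not taken to pair the libraries. Mimic replicate 1 correlated best with NC replicate 2, at 0.166. With the block the ratios of EZH2 to EZH1 and of RNF2 to RING1 each had an exact permutation p = 0.25, the smallest that 3 pairs allow, and that of SUZ12 to ZEB1 the same value. Among the members and the called genes of the Polycomb-related lists, read depth limited JARID2 and SCML2 most. The cause of these shifts was not tested.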

Other observations

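The PCGF proteins are alternative partners of the PRC1 ligases, and each defines a different form of the complex. BMI1 apart, the 5 others tested differed in sign, and none was called by edgeR. They were singled out after their values were seen. PCGF5 had 43.1, 54.6 and 54.2 CPM in mimic replicates 1 to 3, against 40.1, 38.5 and 46.9 CPM in NC replicates 1 to 3, a log2 fold change of 0.28 ± 0.10 (SE) with an edgeR adjusted p of 0.1. PCGF1 had 8.24, 7.17 and 7.67 CPM in mimic replicates 1 to 3, against 9.86, 10.8 and 7.91 CPM in NC replicates 1 to 3, a log2 fold change of −0.31 ± 0.14 (SE) with an edgeR adjusted p of 0.223. Both overlapped between the groups. The log2 fold changes of PCGF6, PCGF3 and PCGF2 were 0.14, −0.11 and −0.13. For PCGF3 and PCGF2 all 3 mimic libraries lay below all 3 NC libraries, while PCGF6 overlapped. In the RefSeq annotation PCGF2 overlaps the gene PSMB3. Of all tested genes, 21.8% had groups that did not overlap.

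A pair of subunits, also named after their values were seen, lay close above the threshold beside EZH2. LCOR, a corepressor gene whose locus also encodes a PRC2 accessory protein, had a log2 fold change of 0.31 ± 0.10 (SE) and an edgeR adjusted p of 0.0648, and MGA, the DNA-binding partner in the PCGF6 form of PRC1, had 0.26 ± 0.08 (SE) and 0.0731. Over the alternatives the adjusted p ranged from 0.00102 to 0.253 for LCOR and from 0.0114 to 0.337 for MGA. MGA overlaps several other annotated genes.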
